A study of Homo sapiens with 9 samples.

Results

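The nucleic acid sensors and their adaptors were described in 9 RNA-seq libraries of multicellular tumor spheroids (MTSs) grown from PC3 cells, a human prostate cancer line derived from a bone metastasis. The set was chosen by gene symbol and holds 10 of the 27111 genes in the deposited gene tables. Its members are the RNA sensors DDX58 (RIG-I), IFIH1 (MDA5), DHX58 (LGP2) and TLR3, the mitochondrial adaptor MAVS, the RNA-dependent kinase EIF2AK2 (PKR), the DNA sensors IFI16 and AIM2, and the kinases TBK1 and IKBKE. All 3 groups of 3 libraries were stable lines made by lentiviral infection and puromycin selection. The Empty line carried the vector without insert, and the other lines overexpressed NF-YAl or NF-YAs, the long and short splice variants of NF-YA, the regulatory subunit of the CCAAT-binding factor NF-Y. The sources describe 1 line per construct, each library pooling several MTSs and the 3 libraries of a line coming from independent experiments. The p-values thus measure the spread between experiments on the same line, not between separately made lines.

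Viral or self RNA in the cytosol is bound by the helicases RIG-I and MDA5, which then engage MAVS on the mitochondrial surface, while TLR3 reads double-stranded RNA inside endosomes. MAVS and TLR3 signals reach TBK1 and IKKε, which phosphorylate interferon regulatory factors and switch on the type I interferon genes. DDX58, IFIH1, DHX58, EIF2AK2, IFI16 and AIM2 are themselves known interferon-stimulated genes, so that the sensors are both the source and the target of the response.

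Each library held 18076979 to 27163976 expected counts, the estimates of reads per gene made by RSEM. Levels of 1 gene across libraries are given below as CPM, counts scaled to the library total after TMM normalization, listed in the order of the replicate letters (A, B and C, or A, B and D for NF-YAl), and levels of different genes are compared only as TPM, which corrects for transcript length. The study describes the overexpressed isoforms as murine, whereas the reads were aligned to human transcripts, so that the human NFYA count holds endogenous reads and any murine reads that align to it. NFYA ranged from 89.2 to 96.7 CPM in Empty, whereas NF-YAl libraries had 287 to 383 CPM and NF-YAs libraries 254 to 264 CPM, without overlap of either overexpressing line with Empty. All NF-YAl libraries also lay above all NF-YAs libraries, at an adjusted p that was not under 0.01 (Log2FC 0.39 ± 0.108 SE, edgeR adjusted p = 0.0228). These gene-level counts separate neither the isoforms nor the species. Of the markers that fit PC3 cells, KRT8, KRT18, KRT19, ITGA6 and CD44 were abundant, KLK3 had 0 counts in all libraries, and EPCAM stood at 0.982 CPM in Empty. The 7 epithelial markers together summed to 2413 to 2655 CPM in Empty libraries, against 1479 to 1543 CPM for NF-YAl and 1608 to 1772 CPM for NF-YAs. KRT8, KRT18, KRT19, ITGA6 and CD44 carried these sums, each with a lower mean in both overexpressing lines. EPCAM went the other way, with means of 0.982, 4.42 and 2.71 CPM in Empty, NF-YAl and NF-YAs. CDH1 means were 6.58, 7.45 and 2.625 CPM in that order. The 9 leukocyte markers summed to 80.2 to 96.6, 56.4 to 59.9 and 51.1 to 59.0 CPM in the same order, nearly all of it CD68 and LYZ. CD3E and HLA-DRA had at most 3 counts in every library. The 6 endothelial and fibroblast markers summed to 12.96 to 14.6, 7.08 to 7.53 and 8.83 to 9.63 CPM. These sums were lower in both overexpressing lines than in Empty, and the part of these markers in the results was not tested. In bulk RNA, less RNA per cell and fewer cells expressing a gene cannot be told apart.

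The promoters of the 4 RNA-binding members that were called against Empty are shown here for their interferon and NF-Y motifs, a choice made after their values were seen. RefSeq windows from 250 bases before to 50 bases after the gene start were given for 9 of the 10 members (build GRCh38.p14), all but DHX58. Capitals mark matches, on either strand, to the CCAAT box (CCAAT), the core of the interferon-stimulated response element (ISRE, GAAANNGAA) and the gamma-activated site (GAS, TTCNNNGAA). The windows lie at chr9:32526147-32526446 for DDX58, chr2:162318635-162318934 for IFIH1, chr2:37156931-37157230 for EIF2AK2 (these 3 on the minus strand) and chr4:186068906-186069205 for TLR3 (plus strand), and each is written 5′ to 3′ along its gene.
DDX58: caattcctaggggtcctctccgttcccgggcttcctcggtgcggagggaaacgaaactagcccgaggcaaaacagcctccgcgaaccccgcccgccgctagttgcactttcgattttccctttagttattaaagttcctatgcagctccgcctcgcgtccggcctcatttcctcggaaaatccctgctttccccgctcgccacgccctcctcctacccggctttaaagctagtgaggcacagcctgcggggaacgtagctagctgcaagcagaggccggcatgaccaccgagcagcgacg
IFIH1: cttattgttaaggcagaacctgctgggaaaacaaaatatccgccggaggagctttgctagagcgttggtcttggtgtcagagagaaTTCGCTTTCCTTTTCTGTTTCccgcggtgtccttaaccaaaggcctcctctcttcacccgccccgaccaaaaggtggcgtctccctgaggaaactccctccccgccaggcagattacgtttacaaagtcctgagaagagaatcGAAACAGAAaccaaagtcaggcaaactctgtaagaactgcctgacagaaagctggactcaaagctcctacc
EIF2AK2: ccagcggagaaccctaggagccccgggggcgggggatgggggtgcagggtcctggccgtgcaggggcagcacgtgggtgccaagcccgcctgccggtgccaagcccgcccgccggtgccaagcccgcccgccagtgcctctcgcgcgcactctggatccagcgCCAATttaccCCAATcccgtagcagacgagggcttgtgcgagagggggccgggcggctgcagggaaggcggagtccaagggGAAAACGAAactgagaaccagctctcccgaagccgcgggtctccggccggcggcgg
TLR3: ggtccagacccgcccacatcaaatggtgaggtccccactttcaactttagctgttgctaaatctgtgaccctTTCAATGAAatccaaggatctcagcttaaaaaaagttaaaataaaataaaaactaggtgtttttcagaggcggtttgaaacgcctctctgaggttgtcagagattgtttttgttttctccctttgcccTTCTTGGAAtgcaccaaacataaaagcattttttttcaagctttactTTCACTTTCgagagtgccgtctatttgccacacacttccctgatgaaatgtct
The window of IFIH1 held 4 ISRE cores, 3 of them in a row, each overlapping the next, and starting at -164, -158 and -152, and 1 starting at -21 (bases from the gene start). In EIF2AK2, an ISRE core began at -6 and was preceded by a pair of CCAAT boxes at -87 and -77. TLR3 held an ISRE core at -3 and GAS matches at -178 and -50. The letters of the 3 motifs were not found in the window of DDX58, nor in those of IFI16 and IKBKE, which says only that these spellings are not in these windows. MAVS and TBK1 each held 1 CCAAT box, and AIM2 held 2 CCAAT boxes and an ISRE core that overlaps one of them.

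Among all 35116 promoter windows, 8.11% held an ISRE core, 34.6% a CCAAT box and 7.66% a GAS match. Of the 9 members with a window, 4 (44.4%) held an ISRE core, 4 (44.4%) a CCAAT box and 1 (11.1%) a GAS match. A window was given for 36 of the 45 interferon-stimulated effector genes listed. Of these, 23 (63.9%) held an ISRE core, 12 (33.3%) a CCAAT box and 10 (27.8%) a GAS match. A match is a description of the letters and not of a bound site.

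**Figure D1:**
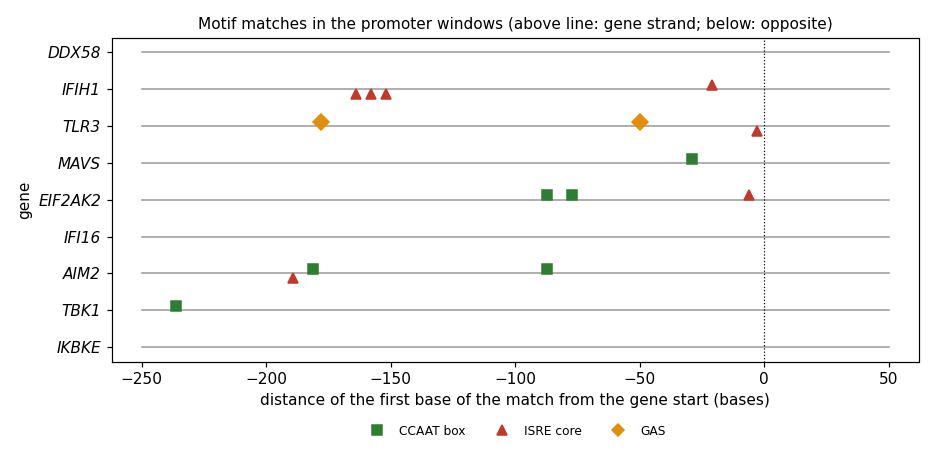
Motif matches in the promoter windows of the 9 members with a RefSeq window, 1 line per gene, with the distance in bases from the gene start on the x axis (0, dotted). Squares are CCAAT boxes, triangles ISRE cores and diamonds GAS matches, drawn above the line when on the gene's strand and below it when on the other. IFIH1 carries 4 ISRE cores, EIF2AK2 a core close to the start behind its CCAAT boxes, and the lines of DDX58, IFI16 and IKBKE are empty.

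In Empty MTSs, MAVS was the most abundant member by length-corrected level, with a TPM of 42.0 ± 6.38 (SD, n = 3, as for all TPM and CPM means below). EIF2AK2 followed at 37.6 ± 8.55 TPM, and its range over the libraries overlapped that of MAVS. DDX58 (24.05 ± 3.60 TPM) lay above IFIH1 (15.7 ± 2.13 TPM), without overlap. Below them came IFI16 at 9.25 ± 2.48 TPM and TBK1 at 8.86 ± 1.81 TPM, whose ranges overlapped, and then IKBKE at 4.50 ± 0.867 TPM. TLR3 was scarce at 0.177 ± 0.0416 TPM. The order thus ran from the shared adaptor and the broadly expressed kinase PKR, through the cytosolic RNA helicases, to the endosomal receptor.

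Neither DHX58 nor AIM2 could be assessed. DHX58 encodes LGP2, the RIG-I-like receptor without a signaling domain, and had 1 count in a single NF-YAs library and 0 counts in the other 8. AIM2, the cytosolic DNA sensor that assembles an inflammasome, had 3, 0 and 2 counts in the Empty libraries, while NF-YAl libraries had 0, 1 and 0 and NF-YAs libraries 3, 3 and 1. A limit of 3 counts, below which a level cannot be told from 0, corresponds to 0.118 to 0.162 CPM in these libraries. Both genes stayed at or under it, and no fold is given for them.

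The remaining 8 members passed the filter on low counts and were tested with edgeR on all 17108 genes that passed, with p-values adjusted over all of them. A gene is called higher or lower at an adjusted p under 0.01, and is a differentially expressed gene (DEG) when its |Log2FC| is also above 1. In NF-YAl against Empty, 3 of the 8 were lower, DDX58, IFIH1 and EIF2AK2, where 9.54% of all tested genes were lower. DDX58 and IFIH1 were DEGs, a class that held 3.5% of tested genes on the lower side. In edgeR 0 members were higher, where 10% of all tested genes were, and 0 were higher at an unadjusted p under 0.05. DESeq2 and limma also called 0 members higher. In NF-YAs against Empty, 3 were higher (TLR3, IKBKE and IFI16, where 12.1% of tested genes were higher) and 2 were lower (DDX58 and EIF2AK2, where 10.5% were lower). TLR3 was the DEG among them, and 5.44% of tested genes were DEGs on the higher side. Between the overexpressing lines, 4 of the 8 were lower in NF-YAl than in NF-YAs, namely DDX58, IFIH1, IFI16 and IKBKE, where 6.25% of tested genes were lower. DDX58 and IFI16 passed the DEG limit there, as did 2.86% of tested genes on that side. Higher in NF-YAl than in NF-YAs were 0 members by edgeR, where 4.7% of tested genes were, and 0 at an unadjusted p under 0.05, with 0 also by DESeq2 and limma. The median Log2FC of the 8 members was -0.37, -0.13 and -0.82 in these comparisons, and that of all tested genes was 0.01, -0.00 and 0.02. The first and second comparison share the Empty libraries.

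**Figure D2:**
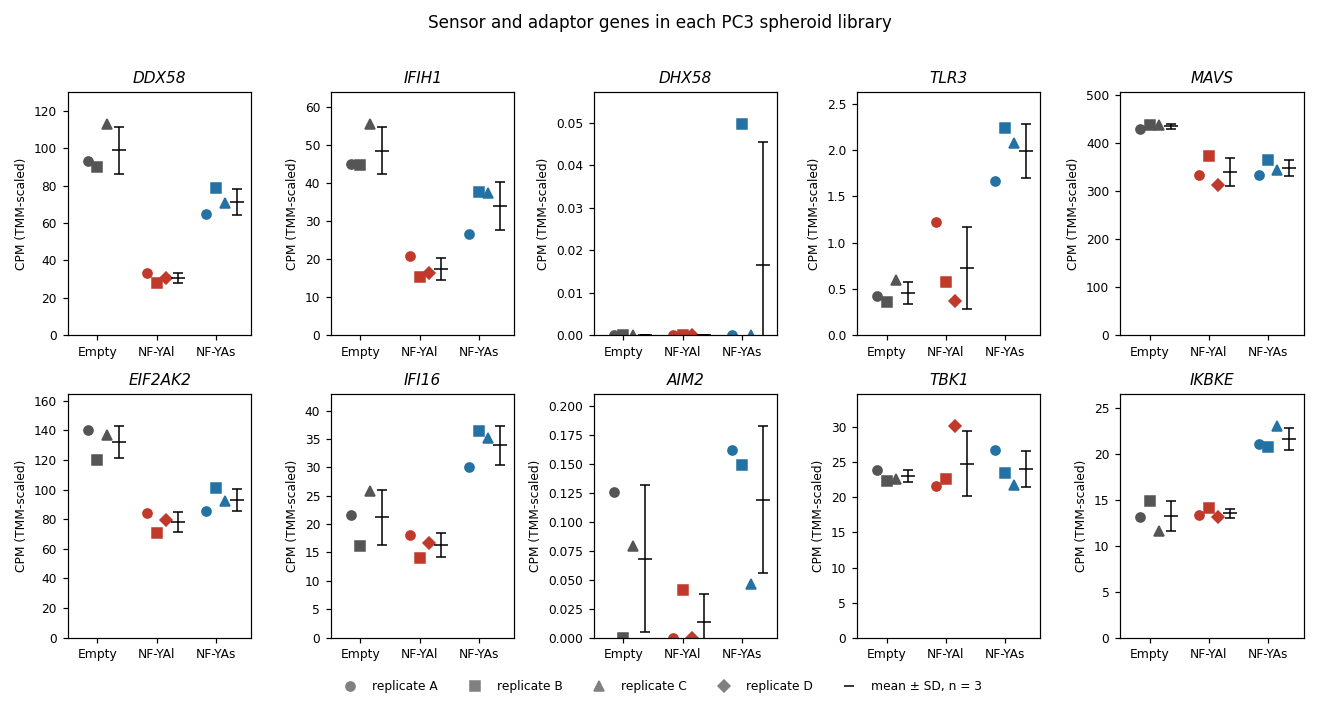
TMM-scaled CPM of each member (y axis, linear, from 0) in the 9 PC3 spheroid libraries, 1 panel per gene, with groups on the x axis. Symbols mark the replicate letter of each library and the black bars the mean ± SD of 3 libraries. DDX58, IFIH1 and EIF2AK2 sit highest in Empty, whereas TLR3, IFI16 and IKBKE sit highest in NF-YAs, and DHX58 and AIM2 are at most 3 counts in any library.

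DDX58 showed the largest fall of the set. It encodes RIG-I, the helicase that binds RNA with a 5′ triphosphate, and lies on the minus strand of chr9:32455300-32526206 (GRCh37). A protein-coding gene without a symbol overlaps DDX58 on the same strand. The Empty libraries held 93.4, 90.2 and 113 CPM, the NF-YAl libraries 33.0, 28.0 and 30.7 CPM, and the NF-YAs libraries 64.6, 78.7 and 70.5 CPM. The groups did not overlap, with NF-YAs between the others. The NF-YAl level was 30.9% of Empty (Log2FC -1.70 ± 0.119 SE, edgeR adjusted p = 1.89e-06). The NF-YAs level was 72.0% of Empty (Log2FC -0.47 ± 0.116 SE, edgeR adjusted p = 0.00707). That call was lost in 5 of the fits that leave out 1 library, where the adjusted p rose to between 0.0104 and 0.0444. It was also lost by limma on TPM, with or without scaling of the libraries to a common median. The call thus held in 11 of 18 alternative fits, over which the adjusted p reached 0.60. Compared directly, NF-YAl was lower than NF-YAs in 3 of 3 libraries (Log2FC -1.22 ± 0.119 SE, edgeR adjusted p = 4.43e-05).

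IFIH1 moved along with DDX58. It encodes MDA5, the helicase that assembles on long double-stranded RNA, and lies on the minus strand of chr2:163123584-163175194 (GRCh37). Empty libraries held 44.9, 44.7 and 55.5 CPM, NF-YAl libraries 20.7, 15.2 and 16.2 CPM, and NF-YAs libraries 26.5, 37.6 and 37.3 CPM. NF-YAl was again lowest and NF-YAs intermediate, and NF-YAs replicate A came closest to NF-YAl. The change was to 35.8% of Empty in NF-YAl (Log2FC -1.48 ± 0.163 SE, edgeR adjusted p = 3.96e-05). In NF-YAs the value was 70.0% of Empty, which did not pass the threshold (Log2FC -0.52 ± 0.158 SE, edgeR adjusted p = 0.0235), although every NF-YAs library lay under every Empty library. The difference between the lines was called (Log2FC -0.97 ± 0.163 SE, edgeR adjusted p = 0.00151), in 16 of 18 alternative fits, and was lost without NF-YAs replicate C (adjusted p = 0.0106) and by limma on TPM (adjusted p = 0.118). Across the 9 libraries the log2 CPM of IFIH1 and DDX58 had a Pearson r of 0.98, a description of points that share library and group.

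MAVS, the adaptor on which both helicases converge, stood closer to its Empty level. It lies at chr20:3827446-3856770 on the plus strand (GRCh37) and had 427.5, 438 and 437 CPM in the Empty libraries, against 333, 371.5 and 312 CPM for NF-YAl and 333.5, 364.5 and 344 CPM for NF-YAs. The Empty libraries lay above all others, and the overexpressing lines overlapped. The values of 78.1% of Empty in NF-YAl (Log2FC -0.36 ± 0.0931 SE, edgeR adjusted p = 0.0117) and 80.0% in NF-YAs (Log2FC -0.32 ± 0.0930 SE, edgeR adjusted p = 0.0176) missed the threshold. DESeq2 called both, with adjusted p of 0.00131 and 0.00426, and of 18 alternative fits 3 called MAVS in NF-YAl and 5 in NF-YAs. Between the overexpressing lines the difference was -0.03 ± 0.0930 SE.

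EIF2AK2 encodes PKR, which phosphorylates the initiation factor eIF2α and thereby shuts down translation when it binds double-stranded RNA. It lies on the minus strand of chr2:37326353-37384665 (GRCh37), overlapping GPATCH11 on the other strand. Empty libraries held 140, 120.2 and 137 CPM, NF-YAl libraries 84.5, 70.9 and 79.5 CPM, and NF-YAs libraries 85.7, 101 and 92.0 CPM. Both overexpressing lines lay under Empty, with NF-YAl just under NF-YAs. EIF2AK2 RNA was at 59.2% of Empty in NF-YAl (Log2FC -0.76 ± 0.105 SE, edgeR adjusted p = 2.07e-04) and at 70.2% in NF-YAs (Log2FC -0.51 ± 0.105 SE, edgeR adjusted p = 0.0025). The NF-YAs call was lost when Empty replicate A or C or NF-YAs replicate A or C was left out, with adjusted p of 0.0137 to 0.0168. Limma on TPM did not make it either, and it held in 13 of 18 alternative fits. The direct difference between the lines was -0.25 ± 0.105 SE and was not called (edgeR adjusted p = 0.11).

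TLR3 changed in the opposite direction. It encodes the endosomal receptor for double-stranded RNA (chr4:186990065-187009227, plus strand, GRCh37), and its counts were low, with 10, 9 and 15 in Empty libraries, 23, 14 and 9 in NF-YAl libraries, and 31, 45 and 45 in NF-YAs libraries. In CPM these were 0.419, 0.358 and 0.590, then 1.22, 0.573 and 0.370, then 1.67, 2.24 and 2.07. The NF-YAs libraries lay above all others, and NF-YAl overlapped Empty. TLR3 was 4.33-fold higher in NF-YAs than in Empty (Log2FC 2.12 ± 0.40 SE, edgeR adjusted p = 0.00148). On the log2(TPM + 0.5) scale, which understates changes of scarce genes, limma gave a Log2FC of 1.01. The NF-YAl value of 0.61 ± 0.438 SE was not called. The difference of -1.51 ± 0.385 SE between the lines just missed the threshold (edgeR adjusted p = 0.015) and passed it without NF-YAl replicate A, at -2.07 with an adjusted p of 0.00159.

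IFI16, a nuclear and cytosolic DNA sensor of the PYHIN family (chr1:158969758-159024945, plus strand, GRCh37, overlapping PYDC5 on the other strand), held 21.6, 16.2 and 25.8 CPM in the Empty libraries, against 18.1, 14.0 and 16.7 CPM for NF-YAl and 30.0, 36.4 and 35.1 CPM for NF-YAs. Empty and NF-YAl overlapped, and NF-YAs lay above both. It was 1.60-fold higher in NF-YAs than in Empty (Log2FC 0.68 ± 0.164 SE, edgeR adjusted p = 0.00679). That call was lost in 5 of the 9 fits that leave out 1 library, at an adjusted p of 0.0103 to 0.0316. Limma on TPM did not make it either, and it held in 12 of 18 alternative fits. NF-YAl against Empty gave -0.38 ± 0.166 SE, which was not called. Against NF-YAs, IFI16 was lower in NF-YAl in 3 of 3 libraries (Log2FC -1.06 ± 0.166 SE, edgeR adjusted p = 9.90e-04).

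The kinases downstream of MAVS and TLR3 are a related pair. TBK1 (chr12:64845870-64895894, plus strand, GRCh37, overlapping lncRNA genes on both strands), the broadly expressed kinase of interferon regulatory factors, held 24.0, 22.4 and 22.7 CPM in the Empty libraries, against 21.7, 22.7 and 30.1 CPM for NF-YAl and 26.8, 23.5 and 21.8 CPM for NF-YAs. The groups overlapped, and NF-YAl replicate D stood above the rest. Its Log2FC was 0.11 ± 0.136, 0.06 ± 0.137 and 0.05 ± 0.137 (SE) in the comparisons as ordered above, none of them called. IKBKE, the inducible relative that encodes IKKε (chr1:206643819-206670222, plus strand, GRCh37, overlapping the antisense gene IKBKE-AS1), held 13.1, 14.9 and 11.6 CPM in the Empty libraries and 13.4, 14.1 and 13.1 CPM in those of NF-YAl. In NF-YAs it held 21.1, 20.7 and 23.0 CPM, above all other libraries. The rise was 1.64-fold over Empty (Log2FC 0.71 ± 0.122 SE, edgeR adjusted p = 7.56e-04). NF-YAl did not pass the threshold against Empty (Log2FC 0.04 ± 0.123 SE), and it was lower than NF-YAs (Log2FC -0.68 ± 0.122 SE, edgeR adjusted p = 0.00228). Leaving out NF-YAs replicate C took this last call to an adjusted p of 0.0179. Limma on TPM called IKBKE neither there nor in NF-YAs against Empty.

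**Figure D3:**
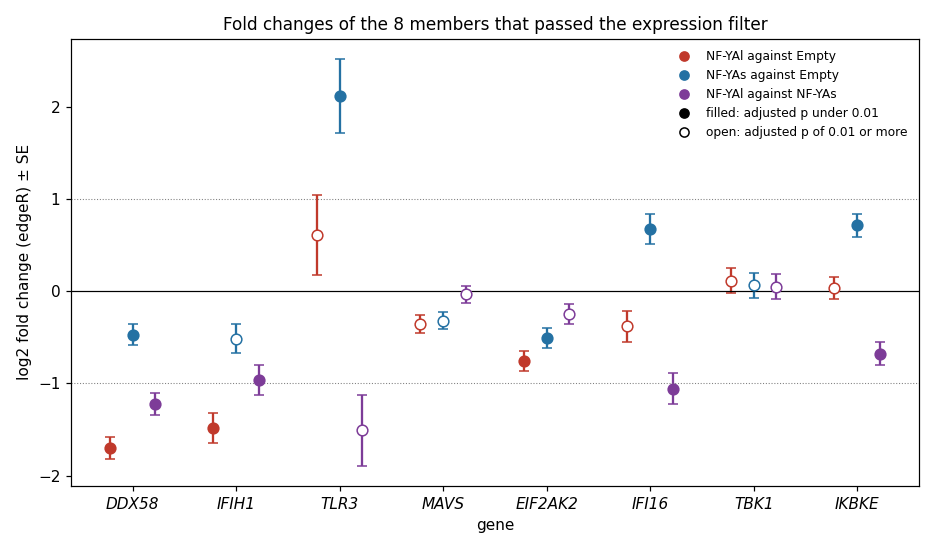
Log2 fold change from edgeR (y axis) ± SE of the 8 tested members (x axis) in the 3 comparisons, with filled points for an adjusted p under 0.01 and open points otherwise. DDX58 and IFIH1 lie below -1 in NF-YAl against Empty, TLR3 above 2 in NF-YAs against Empty, and the points of TBK1 lie near 0 throughout.

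The members shared patterns across the libraries, which are described by Pearson r of log2 CPM over 9 libraries that share their group. DDX58, IFIH1 and EIF2AK2 varied together, with r of 0.89 between DDX58 and EIF2AK2 and 0.92 between IFIH1 and EIF2AK2. MAVS had an r of 0.71 with DDX58, 0.74 with IFIH1 and 0.83 with EIF2AK2. TLR3, IFI16 and IKBKE also varied together, with r of 0.79 between TLR3 and IFI16, 0.82 between TLR3 and IKBKE and 0.72 between IFI16 and IKBKE. These patterns were not cleanly separate, as IFI16 had an r of 0.56 with DDX58, 0.52 with IFIH1 and 0.23 with EIF2AK2. DDX58 and TLR3 had an r of 0.07. Among 12118 other tested genes with a mean of at least 5 CPM, those most like DDX58 were TRIM5 (r = 0.992), IFI44 (0.99), SP100 (0.99), DDX60 (0.989) and MT2A (0.985). The mean standardized level of the 8 members was most like ZC3HAV1 (0.982), EMP1 (0.979), the carboxypeptidase gene CPM (0.973), SLC35A4 (0.972) and ABHD14B (0.971).

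The gene levels rested mainly on 1 transcript each. DDX58, IFIH1, TLR3 and TBK1 had a single transcript in the annotation. NM_001135651.2 carried 82.1% ± 1.78 of the TPM of EIF2AK2 for Empty, 79.8% ± 3.78 for NF-YAl and 80.1% ± 4.77 for NF-YAs. NM_020746.4 carried 89.3% ± 0.864, 85.0% ± 3.30 and 87.2% ± 1.63 of MAVS, and NM_005531.2 carried 81.8% ± 1.82, 79.0% ± 0.316 and 79.8% ± 1.40 of IFI16, in the same order. For IKBKE, NM_014002.3 carried 76.5% ± 19.4, 74.2% ± 7.54 and 86.8% ± 6.84. None of 27 tests of a transcript's share passed, in a design whose smallest 2-sided exact permutation p is 0.1 (adjusted 0.54). These shares are estimates from reads that the transcripts largely have in common.

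The other genes of the pathway were grouped by role. For all lists below, 10% of the 17108 tested genes were higher and 9.54% lower in NF-YAl against Empty. In NF-YAs against Empty these shares were 12.1% and 10.5%, and in NF-YAl against NF-YAs 4.7% and 6.25%. The median Log2FC of all tested genes was 0.01, -0.00 and 0.02. A count near these shares is not read as a result about its list. Of 21 tested other sensors and adaptors, 2 were higher and 3 lower in NF-YAl against Empty, 3 higher and 1 lower in NF-YAs against Empty, and 3 lower in NF-YAl against NF-YAs (median Log2FC -0.22, 0.01 and -0.25). DDX60, an interferon-induced helicase, was lower in NF-YAl (Log2FC -1.58 ± 0.135 SE against Empty) and in NF-YAs (-0.56 ± 0.131), the same order as DDX58. NLRP3, the sensor of the best known inflammasome, was higher in NF-YAs (1.65 ± 0.165), and TLR4, the lipopolysaccharide receptor, was called higher in both lines from few reads. Its level was 0.0839, 0.238 and 0.236 CPM for Empty, 4.24, 0.90 and 1.56 CPM with NF-YAl, and 1.89, 1.04 and 1.152 CPM with NF-YAs. Empty replicate A lay under the limit of 3 counts for TLR4, and NF-YAl replicate A stood above the other NF-YAl libraries. TLR4 passed the filter on low counts through the overexpressing lines, where it was higher, so no conclusion is drawn from its calls. TMEM173, which encodes STING, was lower in NF-YAl than in NF-YAs (-0.51 ± 0.103).

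Of 32 cofactors of RIG-I, MAVS and TBK1, 6 were higher and 10 lower in NF-YAl against Empty, and 6 were higher and 7 lower in NF-YAs against Empty. Between the lines, 2 were higher and 4 lower in NF-YAl, and the median Log2FC was -0.13, -0.03 and -0.03 in the comparisons as ordered above. IRF7, the interferon-induced transcription factor that TBK1 and IKKε activate, was lower than in Empty in both lines (Log2FC -1.46 ± 0.151 SE in NF-YAl and -0.61 ± 0.148 in NF-YAs). IRF5 was higher in both lines (1.53 ± 0.198 in NF-YAl and 1.20 ± 0.2 in NF-YAs). RNF125, a ubiquitin ligase that marks RIG-I and MDA5 for degradation, was also higher in NF-YAl (1.41 ± 0.168), from 9.16 ± 1.95 to 24.4 ± 3.83 CPM. The TBK1-binding adaptor gene TBKBP1 was higher in both lines (0.87 ± 0.124 in NF-YAl and 1.16 ± 0.124 in NF-YAs), and CYLD, a deubiquitinase that acts on RIG-I and TBK1, was lower in both (-0.78 ± 0.0918 and -1.02 ± 0.0926).

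The products and targets of the pathway were set against the sensors. Among 21 interferon ligand genes, only IFNE and IFNA1 passed the filter on low counts, and IFNB1, the first gene that MAVS signaling switches on, had at most 8 counts in any library and 28 in all 9. IFNE, a constitutive epithelial interferon, was lower in NF-YAs than in Empty (Log2FC -0.60 ± 0.136 SE, edgeR adjusted p = 0.00481) and higher in NF-YAl than in NF-YAs (0.77 ± 0.136, edgeR adjusted p = 0.00206). IFNA1, with at most 27 counts per library, was not called in any comparison. Of 44 tested interferon-stimulated effectors, 41 were lower and 3 not called in NF-YAl against Empty (median Log2FC -1.47), 17 were lower and 2 higher in NF-YAs against Empty (median -0.58), and 33 were lower in NF-YAl than in NF-YAs (median -1.10). MX2, an antiviral GTPase, was the most reduced by the naming rule, from 47.3 ± 6.71 to 5.47 ± 0.0495 CPM in NF-YAl. Beside this median in NF-YAl, the Log2FC of DDX58 was -1.70, that of IFIH1 was -1.48 and that of EIF2AK2 was -0.76, while IFI16, also known as interferon-stimulated, was not called there.

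Of 16 genes of the PKR and stress kinase branch, 4 were lower and 1 higher in NF-YAl against Empty, 6 were lower and 1 higher in NF-YAs against Empty, and 1 was higher in NF-YAl than in NF-YAs. DDIT3, the stress-induced factor CHOP, was lower in both lines (Log2FC -0.86 ± 0.141 and -1.09 ± 0.142 SE), as was TRIB3, a target of the stress factor ATF4 (-0.75 ± 0.13 and -1.06 ± 0.131). EIF2AK3, which encodes the related eIF2α kinase PERK, was lower in NF-YAs against Empty (-0.73 ± 0.0966) and higher in NF-YAl than in NF-YAs (0.66 ± 0.0968). The 16 genes together had a median Log2FC of -0.23, -0.38 and 0.12.

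Of 23 enzymes that clear or edit nucleic acids, 6 were lower and 1 higher in NF-YAl against Empty, 4 were lower in NF-YAs against Empty, and 5 were lower and 1 higher in NF-YAl against NF-YAs (median Log2FC -0.31, -0.14 and -0.17). The cytidine deaminase genes APOBEC3B, APOBEC3G, APOBEC3C and APOBEC3F led the first group, with Log2FC of -1.83, -1.35, -1.07 and -1.04 in NF-YAl. They are close paralogs, among which reads can be shared in the counting. ADAR, the editing enzyme that keeps self RNA from activating MDA5 and PKR, was lower than in Empty (603 ± 21.4 CPM) both in NF-YAl, at 397 ± 41.0 CPM (Log2FC -0.60 ± 0.111 SE), and in NF-YAs, at 374 ± 41.4 CPM (-0.69 ± 0.112). TREX1, the exonuclease that removes cytosolic DNA, was lower in NF-YAs than in Empty (-1.22 ± 0.157).

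Of 9 tested partners of the inflammasome and of the IFI16 family, 1 was higher and 1 lower in NF-YAl against Empty, 3 were higher and 1 lower in NF-YAs against Empty, and 1 was lower in NF-YAl than in NF-YAs (median Log2FC 0.01, 0.30 and -0.29). IL1B, the precursor of interleukin-1β, was higher in both lines (Log2FC 1.89 ± 0.198 and 2.43 ± 0.201 SE), and IL18 was lower in both (-1.37 ± 0.18 and -0.99 ± 0.178). CASP1, the protease that matures both, was called lower in NF-YAl than in NF-YAs at low levels (0.252 ± 0.205 against 1.37 ± 0.441 CPM). The call was borderline (edgeR adjusted p = 0.00985), and NF-YAl replicate D, at 0.0411 CPM, lay under the limit of 3 counts. CASP1 passed the filter on low counts mainly through the NF-YAs libraries, where it was highest, so no conclusion is drawn from this call.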

How the data were processed

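Total RNA libraries were made with a stranded kit, 3 for each of Empty, NF-YAl and NF-YAs. The submitters' processing notes name Bowtie2, RSEM and hg19, and whether counting used the strand is not given in the sources used here. The authors deposited, per library, the expected count, TPM and effective length of every gene, and for transcripts the percent of the gene's TPM. The deposited expected counts were not normalized, and the deposited TPM were scaled by RSEM within each library.

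Members and lists were chosen with earlier results of these data known. After rounding, expected counts entered edgeR 4.0.16 (R 4.3.3) for testing (filterByExpr, TMM scaling, all 9 libraries in 1 fit, quasi-likelihood F-tests, Benjamini-Hochberg adjustment over 17108 genes). The limits of 0.01 for the adjusted p and of 1 for |Log2FC| follow the study's methods, which used DESeq2. SE is |Log2FC| over the square root of F. Transcript shares were compared by exact permutation tests. For each list and comparison, up to 4 genes with the largest |Log2FC| were eligible to be named, among called genes with a mean of at least 1 CPM and no overlap between groups. Alternatives were DESeq2 1.42.0, limma 3.58.1 on log2(TPM + 0.5), relative log expression scaling, other filters, pairwise fits, a replicate block, effective length offsets, an adjusted p under 0.05 and fits without each library. A limma fit with each library scaled to the same median TPM was chosen after seeing the data. The fits were checked on simulated data with known answers. Gene positions are from a GENCODE annotation on GRCh37, promoters from RefSeq on GRCh38.p14, and figures were drawn with matplotlib. Some marker and list genes are not reported here.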

Additional observations from a re-analysis of the deposited data

Results flagged for a closer look

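The NF-YAl and NF-YAs lines differed by the direct test between them for 4 members. The NF-YAl libraries also held more NFYA CPM than the NF-YAs libraries, so isoform and counted NFYA level cannot be told apart in this comparison. The Log2FC of NF-YAl against NF-YAs was -1.22 for DDX58, -0.97 for IFIH1, -1.06 for IFI16 and -0.68 for IKBKE (edgeR adjusted p of 4.43e-05, 0.00151, 9.90e-04 and 0.00228). For DDX58 and IFIH1 both lines lay under Empty and NF-YAl lay lower. For IFI16 and IKBKE the NF-YAs libraries lay above Empty, and the NF-YAl libraries overlapped it.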

How the results depend on the processing

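DDX58 and IFIH1 were past the threshold in NF-YAl against Empty in all 18 alternative fits, with Log2FC of -1.76 to -1.34 and -1.62 to -1.12, and TLR3 was past it in NF-YAs against Empty in the 17 fits that kept it, with Log2FC of 0.97 to 2.35, the lowest by limma on scaled TPM. The counts of members called moved most for those lower in NF-YAs against Empty, 2 as reported. That count was 4 in the fit of only the compared groups and at an adjusted p under 0.05, 0 by limma on TPM and 1 by limma on TPM scaled to a common median, the fit chosen after seeing the data. It ranged from 0 to 4 over the fits without 1 library, being 0 without Empty replicate A or C or NF-YAs replicate A or C, 1 without NF-YAs replicate B and 4 without NF-YAl replicate A. Members higher in NF-YAs against Empty numbered 1 by limma on TPM, and members lower in NF-YAl against NF-YAs numbered 0 there and 2 to 5 over the fits without 1 library, with 2 (DDX58 and IFI16) without NF-YAs replicate C. Unscaled TPM moved the median Log2FC of all tested genes by 0.28, 0.17 and 0.11 in the comparisons, and NF-YAl replicate D had a median TPM of 13.5 over tested genes against 6.82 to 9.41 in the others. EIF2AK2 in NF-YAl against Empty lost its call by limma on TPM (adjusted p = 0.331).

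Changes of sign were limited to uncalled differences near 0. With the replicate block, TBK1 was at -0.088 in NF-YAl against Empty and at -0.148 in NF-YAl against NF-YAs, and MAVS was at 0.019 in the latter. It also called MAVS in NF-YAs against Empty (-0.323, adjusted p = 0.00544), and no count moved by over 1.5 times under the replicate block. The letters were taken as names only, because same-letter correlations of deviations did not all exceed 0.1, being 0.077, -0.013 and 0.098 for NF-YAs and Empty, 0.123 and 0.253 for NF-YAl and Empty, and -0.065 and 0.13 for NF-YAl and NF-YAs. Different-letter values were -0.123 to 0.042, -0.22 to 0.035 and -0.144 to 0.163 in the same order. For NF-YAl and Empty, the same-letter values thus lay above all different-letter ones, and a pairing by letter is not excluded. Limma on TPM put MAVS at 0.094 in NF-YAl against NF-YAs. Over the fits without 1 library, TBK1 ranged from -0.050 (without NF-YAl replicate D) to 0.201 in NF-YAl against Empty, from -0.017 (without NF-YAs replicate A) to 0.127 in NF-YAs against Empty, and from -0.112 (without NF-YAl replicate D) to 0.137 in NF-YAl against NF-YAs. IKBKE ranged from -0.050 (without Empty replicate C) to 0.130 in NF-YAl against Empty, and MAVS from -0.104 to 0.023 (without NF-YAl replicate D) in NF-YAl against NF-YAs. The causes were not tested. At 9 to 45 counts per library, TLR3 has the widest errors of the tested members, and DHX58 and AIM2 were not assessable at this depth.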

Other observations

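The 2′-5′-oligoadenylate branch is another arm of double-stranded RNA sensing that starts from the OAS enzymes. OAS1 fell from 154 ± 27.5 CPM in Empty to 21.2 ± 3.37 CPM in NF-YAl (Log2FC -2.86 ± 0.21 SE) and to 52.5 ± 14.5 CPM in NF-YAs (-1.55 ± 0.199), all by edgeR and past the adjusted threshold. OASL, an OAS-like protein that enhances RIG-I signaling, differed from OAS1 in NF-YAs. From 31.0 ± 7.95 CPM in Empty, OASL was lower in NF-YAl, at 13.8 ± 1.301 CPM (-1.17 ± 0.186), and higher in NF-YAs, at 54.0 ± 10.2 CPM (0.80 ± 0.179).

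NLRC5, a NOD-like receptor reported to bind RIG-I, was at 24.6 ± 2.99 CPM in Empty, and its NF-YAl level of 10.2 ± 3.80 CPM was lower than the NF-YAs level of 36.96 ± 7.12 CPM (Log2FC -1.87 ± 0.245 SE, edgeR adjusted p = 3.24e-04). CASP4, the sensor protease for cytosolic lipopolysaccharide, was 0.98 ± 0.147 higher on the log2 scale in NF-YAs than in Empty, and CARD8, an inflammasome sensor, was 0.49 ± 0.117 higher. DHX36, a helicase that unwinds G-quadruplexes, was 0.61 ± 0.108 higher in that comparison.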
